A study of Mus musculus with 29 samples.

Results

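The genes that make steroid hormones in the ovary were followed in whole mouse ovaries from fetal life to adulthood, with and without the cell cycle inhibitor p27Kip1. The set was a named list of 10 genes, Star, Cyp11a1, Fdx1, Hsd3b1, Cyp17a1, Cyp19a1, Hsd17b1, Hsd17b3, Srd5a1 and Akr1c18, and all 10 were found among the 51912 gene IDs of the deposited count table. Hsd17b1 and Srd5a1 were selected partly on their higher CPM in ovaries without p27Kip1, so their differences between genotypes, and their values in the mutant over age, are described here and not tested. RNA of dissociated ovaries was sequenced in bulk from wild-type mice (Cdkn1b +/+) and from mice homozygous for loss of Cdkn1b (Cdkn1b -/-, called Cdkn1b-null), the gene of p27Kip1. Fetal ovaries came from days 13.5 and 18.5 of embryonic life (E13.5 and E18.5), neonatal ones from the 8th day after birth (PND8), and adult ones from mice aged 12 weeks (12wk). There were 4 wild-type libraries at each age, 4 Cdkn1b-null libraries at E18.5 and 3 at each of the other ages, which makes 29 libraries in 8 groups. All ovaries had been dispersed with papain before RNA was extracted, and the labels give no strain, allele design, litter, cycle stage of the adults or number of animals in a library, so p-values measure the spread between these libraries, which may be technical.

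Steroid hormones are made from cholesterol by a chain of enzymes. Star carries cholesterol into the mitochondrion, where Cyp11a1 cuts off its side chain with electrons passed on by ferredoxin, the product of Fdx1, to give pregnenolone. Hsd3b1 turns pregnenolone into progesterone, and Cyp17a1 turns these precursors into androgens. Cyp19a1, aromatase, turns androgens into oestrogens, and Hsd17b1 converts the weak oestrogen oestrone into oestradiol. Hsd17b3 makes testosterone in the testis, Srd5a1 is a 5-alpha-reductase that acts on testosterone and progesterone, and Akr1c18 is the 20-alpha-hydroxysteroid dehydrogenase that inactivates progesterone in the regressing corpus luteum. In the mature ovary theca cells make androgens, granulosa cells make oestrogens from them, and luteal cells make progesterone.

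The DNA just before a start site of 3 of these genes is shown here because Hsd3b1 and Cyp19a1 passed the test between genotypes at E18.5, and because Cyp11a1 is the entry enzyme of the pathway. Each window holds the 250 bases before a RefSeq start site on GRCm38.p6, printed 5′ to 3′ in the direction of the gene. Capitals mark matches to a GATA-type word (searched on both strands as AGATAA or TGATAA, or the same words ending in G, so that TTATCT is AGATAA on the other strand).
Hsd3b1, chr3:98859795-98860044, minus strand: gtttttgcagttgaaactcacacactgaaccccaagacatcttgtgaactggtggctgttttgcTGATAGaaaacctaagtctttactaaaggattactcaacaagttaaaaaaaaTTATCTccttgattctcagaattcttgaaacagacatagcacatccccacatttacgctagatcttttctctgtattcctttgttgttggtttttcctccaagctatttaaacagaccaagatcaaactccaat
Cyp19a1, chr9:54193744-54193993, minus strand: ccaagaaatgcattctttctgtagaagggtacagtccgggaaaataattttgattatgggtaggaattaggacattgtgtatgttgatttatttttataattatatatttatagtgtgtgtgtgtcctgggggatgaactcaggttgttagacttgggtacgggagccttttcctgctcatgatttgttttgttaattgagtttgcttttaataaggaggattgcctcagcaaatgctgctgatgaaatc
Cyp11a1, chr9:58014702-58014951, plus strand: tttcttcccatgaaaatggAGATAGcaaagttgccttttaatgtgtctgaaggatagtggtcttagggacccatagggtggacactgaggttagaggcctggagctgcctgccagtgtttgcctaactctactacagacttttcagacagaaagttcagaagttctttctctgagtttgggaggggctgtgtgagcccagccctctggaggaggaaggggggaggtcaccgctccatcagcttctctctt
Windows were found for 7 of the 10 genes, 10 windows in all, because Cyp19a1 has 3 start sites in that table and Cyp11a1 has 2. For these 2 genes the window of the start site farthest downstream is printed, which lies inside the span that GENCODE gives the gene, and the use of the start sites was not measured. The Hsd3b1 window held 2 GATA-type words, at positions -186 to -181 and -134 to -129 counted back from the start site. The windows of Cyp11a1 (positions -231 to -226) and Fdx1 (positions -192 to -187) held 1 each, and such a word was in 26.5% of all 32851 promoter windows of the same length. A site of the type bound by NR5A1 (AAGGTCA, or the same word with C in place of T, either strand) was in 9.09% of all windows, and the core of the cAMP response element (TGACGT, either strand) in 6.47%. Neither word was in any of the 10 windows.

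Library totals ran from 14.1 M to 48.2 M counts. Levels are CPM, in which each library's counts are scaled to a common total, after TMM scaling over all libraries, and the smallest level a library can show was set at 3 counts, which is 0.0622 to 0.213 CPM and covers counting error only. The targeted gene was lower in every Cdkn1b-null library than in every wild-type library of its age, with Cdkn1b at 4.29 to 4.75 CPM against 19.1 to 26.1 CPM at E13.5 and at 65.0 to 79.8 CPM against 133 to 173 CPM at PND8. The granulosa marker list (10 genes) summed to at least 419 CPM in every library. The testis gene Sry and the adrenal gene Cyp11b2 had no count in any library, and Cyp11b1 reached at most 1.98 CPM and Cyp21a1 0.514 CPM. Other members of these lists were present. The adrenal list (7 genes) had 3 to 5 genes above 3 counts per library and summed to 10.6 to 87.0 CPM. The testis list (6 genes) had 4 or 5 and summed to 32.4 to 101 CPM. In the E13.5 wild-type replicate 3 the 6 blood genes summed to 184548 CPM, against a group median of 8299 CPM, so results at E13.5 were also computed without it.

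The steroid synthesis genes spanned a wide range of levels. In wild-type ovaries the mean level of Hsd3b1 went from 16.7 CPM at E13.5 to 3376 CPM at 12wk, while Hsd17b3 averaged 1.08 CPM at its highest. Divided by exon length, which allows genes to be compared, Hsd3b1 stood at 9.02, 96.2, 618 and 1820.2 CPM per kb from E13.5 to 12wk. It held the first place among the 10 genes in 7 of the 8 groups. In the E13.5 wild type Fdx1, at 9.78 CPM per kb (SD 1.31), stood above it, but the difference was within the spread of the libraries (SD 1.93 for Hsd3b1). Of the summed length-scaled level of the 10 genes in wild type, Hsd3b1 made up 33.6, 73.5, 80.1 and 62.8% at the successive ages. At 12wk Cyp11a1 was next with 19.2%. All 10 genes had their highest wild-type mean at 12wk under each of the 3 scalings tried.

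**Figure D1:**
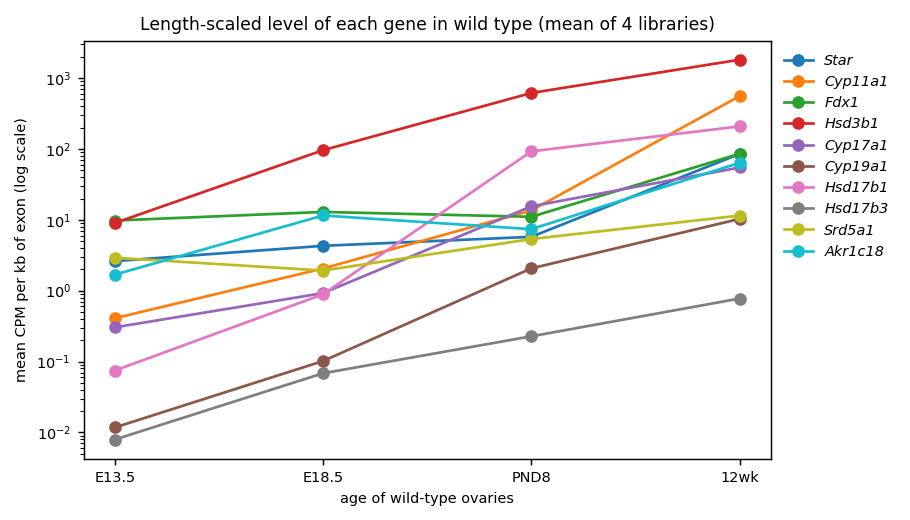
Mean CPM per kb of exon (log scale) of each gene in wild-type ovaries at 4 ages, each point the mean of 4 libraries. Hsd3b1 stands first from E18.5 on, and Cyp19a1 and Hsd17b3 are the lowest at E13.5.

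The cholesterol carrier Star was far higher in adult ovaries than at any earlier age. Star (chromosome 8, 25806555 to 25815982, GRCm38) measured 11.2, 11.9, 10.2 and 9.65 CPM in the 4 wild-type libraries at E13.5, 9.13, 12.3, 25.8 and 23.4 CPM at E18.5, and 18.1, 29.1, 20.8 and 26.7 CPM at PND8. At 12wk it measured 152, 746, 161 and 342 CPM. Neighbouring ages overlapped until PND8, although every PND8 library lay above every E13.5 library, and all adult libraries lay above all others. The first 2 steps, 0.70 (SE 0.31) and 0.34 (SE 0.31) on the log2 scale, did not pass (edgeR adjusted p 0.104 and 0.344), and the first passed without the E18.5 wild-type replicate 1 (0.92, edgeR adjusted p 0.0251). Star rose from PND8 to 12wk by 3.96 on the log2 scale (SE 0.54, edgeR adjusted p 0.00112). The rise was 3.29 without the 12wk wild-type replicate 2, the library with the highest level.

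The side-chain cleavage enzyme rose from the first step on. Cyp11a1 (chromosome 9, 58006411 to 58027023) lay at 1.01 to 3.14 CPM at E13.5, 5.12 to 12.6 CPM at E18.5, 22.5 to 111 CPM at PND8 and 642 to 5509 CPM at 12wk in wild type, with no overlap between neighbouring ages. The step from E13.5 to E18.5 was 2.31 on the log2 scale (SE 0.42, edgeR adjusted p 0.00203). The step from E18.5 to PND8 was 2.65 (SE 0.47, edgeR adjusted p 0.000566), and that from PND8 to 12wk was 5.43 (SE 0.78, edgeR adjusted p 0.00143; 4.82 without the 12wk wild-type replicate 2). Its electron donor Fdx1 (chromosome 9, 51943306 to 51963556) had another course. It lay between 25.6 and 44.4 CPM in every wild-type library up to PND8 and at 170, 464, 68.5 and 361 CPM at 12wk. Fdx1 passed the test at the last step alone (log2 3.03, SE 0.54, edgeR adjusted p 0.00367); the 2 earlier steps, 0.39 and -0.31, did not (edgeR adjusted p 0.0672 and 0.141), and the first passed without the E18.5 wild-type replicate 4 (0.49, edgeR adjusted p 0.0322).

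Hsd3b1 (chromosome 3, 98852194 to 98859794) rose strongly before birth. Its wild-type libraries measured 14.2, 16.7, 14.3 and 21.8 CPM at E13.5, 227, 197, 175 and 114 CPM at E18.5, 995, 1155, 1256 and 1177 CPM at PND8, and 2303, 5782, 2427 and 2994 CPM at 12wk. No library of 1 age overlapped those of the age before. The steps were 3.40 (SE 0.24, edgeR adjusted p 1.44e-05), 2.60 (SE 0.20, edgeR adjusted p 1.11e-06) and 1.63 (SE 0.28, edgeR adjusted p 0.00334) on the log2 scale. Cyp17a1 (chromosome 19, 46667165 to 46673172), which opens the way to androgens, was lower by far before birth, at 0.308 to 1.18 CPM at E13.5 and 1.84 to 3.04 CPM at E18.5. It rose by 1.57 (SE 0.42, edgeR adjusted p 0.0156) at this first step, a call that was lost when all groups shared 1 fit (edgeR adjusted p 0.339), and by 4.00 from E18.5 to PND8 (SE 0.69, edgeR adjusted p 0.000498). At PND8 its libraries measured 14.9, 63.7, 10.3 and 82.8 CPM, and at 12wk 404, 177, 14.9 and 10.7 CPM. Both of these groups held a pair of high and a pair of low libraries, and the last step, 1.89 (SE 1.15), did not pass (edgeR adjusted p 0.249).

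The enzymes of oestrogen synthesis were at or near the limit of detection at E13.5 and rose steeply between E18.5 and PND8. Cyp19a1 (chromosome 9, 54165937 to 54268110) had 0 to 3 counts in each wild-type library at E13.5 and was not tested there. It measured 0.671, 0.563, 0.145 and 0.460 CPM at E18.5, 7.13, 11.0, 11.7 and 7.50 CPM at PND8, and 86.9, 60.4, 31.0 and 7.96 CPM at 12wk. From E18.5 to PND8 it rose by 4.26 on the log2 scale (SE 0.39, edgeR adjusted p 4.19e-06). The further rise to 12wk, 2.39 (SE 0.60, edgeR adjusted p 0.0171), had 1 adult library within the PND8 range and did not pass with no filter on low counts (edgeR adjusted p 0.0785). Hsd17b1 (chromosome 11, 101078411 to 101080527) had 1 or 2 counts in each E13.5 wild-type library, all under the floor. It measured 0.671, 1.07, 1.64 and 1.38 CPM at E18.5, and no fold is given for this step. The gene passed the filter on low counts only through the E18.5 libraries, where it is higher. Its call (edgeR adjusted p 0.000806) is therefore not taken as support. At PND8 it measured 104, 118, 171 and 103 CPM, a step of 6.60 on the log2 scale (SE 0.28, edgeR adjusted p 4.94e-08). This was the largest among the 10 genes at any wild-type step. Hsd17b1 was picked as higher in the mutant, which favours low wild-type values, so its wild-type steps are not independent of that choice. At 12wk it measured 241, 233, 421 and 222 CPM, 1.25 higher than at PND8 (SE 0.24, edgeR adjusted p 0.00501).

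The remaining genes took other courses. Hsd17b3 (chromosome 13, 64058266 to 64089230), the testicular enzyme, never exceeded 2.03 CPM. It failed the filter on low counts at both earlier steps, and its difference of 1.83 from PND8 to 12wk did not pass (SE 0.66, edgeR adjusted p 0.0649), but passed in DESeq2 (adjusted p 0.0269) and without the 12wk wild-type replicate 2 (2.17, edgeR adjusted p 0.0169). Srd5a1 (chromosome 13, 69573449 to 69611442) lay at 5.49 to 11.9 CPM at E13.5 and between 5.48 and 5.80 CPM in all 4 wild-type libraries at E18.5. This difference, -0.61 (SE 0.26), did not pass (edgeR adjusted p 0.0915), but was called lower without the blood-rich E13.5 replicate 3 (-0.75, edgeR adjusted p 0.0251) and with all groups in 1 fit (edgeR adjusted p 0.0124). It then rose by 1.39 to PND8 (SE 0.14, edgeR adjusted p 7.66e-06) and by 1.18 to 12wk (SE 0.09, edgeR adjusted p 7.69e-05), with 14.3 to 16.7 CPM and 31.8 to 35.9 CPM. These were the tightest groups of any of the genes at those ages. Srd5a1 was picked on the genotype difference, so its wild-type steps are not independent of that choice. Of its 50-base exon words, 15.1% were shared with Gm17108, an overlapping gene model, and RSEM divides such reads between the genes. The largest such share among the other 9 genes was 4.86%, for Hsd3b1.

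Akr1c18 (chromosome 13, 4132615 to 4150654), which inactivates progesterone, rose early and then paused. Its wild-type libraries measured 1.32, 3.08, 1.92 and 1.81 CPM at E13.5, 8.98, 9.41, 29.3 and 7.94 CPM at E18.5, and 8.63, 7.52, 13.4 and 6.08 CPM at PND8. The first step was 2.76 (SE 0.48, edgeR adjusted p 0.00169; 2.10 without the E18.5 wild-type replicate 3, which stood alone), and the next, -0.72, did not pass (SE 0.42, edgeR adjusted p 0.145). At 12wk the libraries measured 116, 73.1, 24.3 and 94.5 CPM, and the rise was 3.20 (SE 0.47, edgeR adjusted p 0.00160).

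Counted over the set, 5 of the 8 tested genes were called from E13.5 to E18.5 in wild type, all higher, where 34% of all genes tested were called. From E18.5 to PND8 it was 6 of 9, all higher, against 74.6%. From PND8 to 12wk it was 8 of 10, all higher, against 30.5%. Called means a Benjamini-Hochberg adjusted p under 0.05 in edgeR's quasi-likelihood test over the whole table. The median log2 fold change of the tested genes was 1.94, 2.60 and 2.14 at the 3 steps, and that of all genes was 0.01, 0.01 and -0.01. Genes of the set that failed the filter on low counts are not in these numbers. The numbers hold the picked genes, whose choice used wild-type libraries too. Hsd17b1 was called at each step and Srd5a1 from E18.5 on. At the first step Hsd17b1 was under the floor in every E13.5 library. In a bulk sample fewer cells of a type and less RNA per cell cannot be told apart. This holds for each difference given here. Attached tissue may differ between ages too. Of the 4 tested markers of mesonephros and oviduct, 3 were called lower from E13.5 to E18.5 in wild type (edgeR, median log2 -3.97). The part of this in the first step was not tested.

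**Figure D2:**
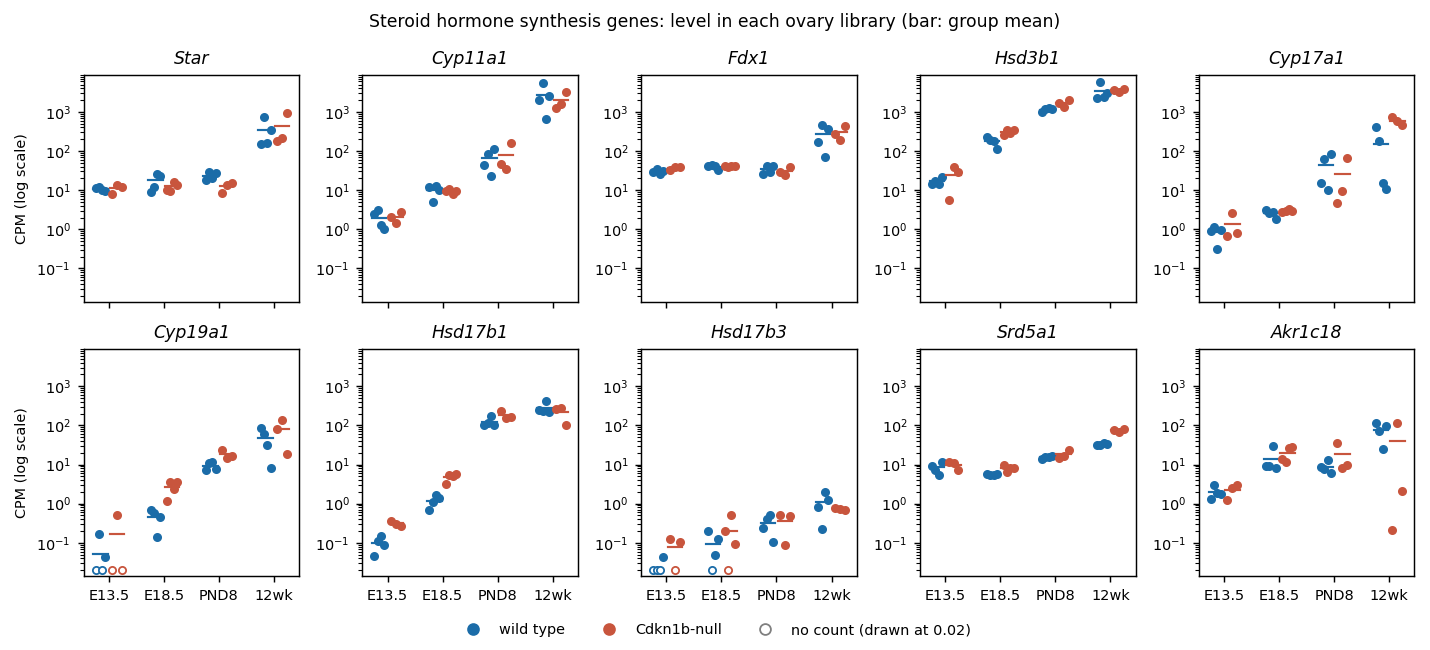
CPM (log scale) of each gene in every library of the 4 ages, wild type in blue and Cdkn1b-null in red, with a bar at each group mean. Libraries with no count are open circles drawn at 0.02. The highest wild-type mean of each gene is at 12wk. By the ratio of highest to lowest library, Cyp17a1 spreads most in the adult wild type and Akr1c18 in the adult Cdkn1b-null group.

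The Cdkn1b-null ovaries went through the same ages. Among the 8 genes not picked for a change in them, 4 of 7 tested were called from E13.5 to E18.5, all higher (30.2% of all genes were called), namely Cyp11a1, Cyp19a1, Hsd3b1 and Akr1c18. Hsd3b1 went from 5.66, 39.5 and 29.9 CPM to 252, 335, 281 and 340 CPM, a difference of 3.62 on the log2 scale (SE 0.61, edgeR adjusted p 0.00672). Blocking on replicate number, since these libraries counted as paired, made the difference 3.86 and did not pass (edgeR adjusted p 0.0530). For Cyp19a1 the E13.5 libraries held no count in 2 of 3 and 0.506 CPM in replicate 3, and the call was lost without the E18.5 replicate 2 or 4 (edgeR adjusted p 0.0543 and 0.0520; the fitted log2 difference of 3.78 was 8.75 without the E13.5 replicate 3). Cyp17a1, at 1.14, did not pass (edgeR adjusted p 0.0937) but did so without that E13.5 replicate (2.02, edgeR adjusted p 0.00451).

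From E18.5 to PND8, 5 of 7 were called in Cdkn1b-null ovaries (77.4% of all genes). Cyp11a1, Cyp17a1, Cyp19a1 and Hsd3b1 were higher and Fdx1 was lower, at 28.7, 23.9 and 38.0 CPM against 40.0 to 42.3 CPM (log2 -0.51, SE 0.14, edgeR adjusted p 0.00771). The Fdx1 call was lost when all groups shared 1 fit (edgeR adjusted p 0.299). The Cyp17a1 step of 3.08 (edgeR adjusted p 0.0216) was 1.16 without the PND8 replicate 4 and lost its call without any single E18.5 library (edgeR adjusted p 0.0503 to 0.0742) and with no filter on low counts (edgeR adjusted p 0.0561). Akr1c18, at -0.21, did not pass but was called lower without the PND8 replicate 1 (-1.22, edgeR adjusted p 0.0313). The Cyp11a1 step of 3.03 was 2.04 without that PND8 replicate.

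From PND8 to 12wk, 5 of 8 were called, all higher (29.1% of all genes), namely Star, Cyp11a1, Cyp17a1, Hsd3b1 and Fdx1. Star went from 8.68, 13.5 and 15.3 CPM to 176, 209 and 920.2 CPM, a rise of 5.24 on the log2 scale (SE 0.82, edgeR adjusted p 0.00615; 4.01 without the 12wk replicate 4). Cyp17a1 went from 4.57, 9.38 and 65.5 CPM to 742, 575 and 449 CPM (log2 4.56, SE 1.05, edgeR adjusted p 0.0218; 6.49 without the PND8 replicate 4). All 3 adult libraries were high, while those of the adult wild type spread over 404, 177, 14.9 and 10.7 CPM. The difference between genotypes at 12wk did not pass (edgeR adjusted p 0.629). The Cyp17a1 call was lost without the 12wk replicate 4 (edgeR adjusted p 0.0585), without the PND8 replicate 3 (edgeR adjusted p 0.0772) or with no filter on low counts (edgeR adjusted p 0.1099). Cyp11a1 rose by 4.74 (SE 0.78, edgeR adjusted p 0.00713; 5.74 without the PND8 replicate 4), and Fdx1 by 3.42 (SE 0.39, edgeR adjusted p 0.00238). The Cyp19a1 difference, 2.18 (SE 0.65), just missed the threshold (edgeR adjusted p 0.0506), and passed without the 12wk replicate 4 (2.65, edgeR adjusted p 0.00462), with all groups in 1 fit (edgeR adjusted p 0.0203) and in DESeq2 (adjusted p 0.0168).

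At E18.5, shortly before birth, aromatase and Hsd3b1 were higher in Cdkn1b-null ovaries. Cyp19a1 measured 0.671, 0.563, 0.145 and 0.460 CPM in wild type and 1.16, 3.50, 2.36 and 3.58 CPM in Cdkn1b-null ovaries. All 4 mutant libraries lay above all 4 wild-type ones. The fitted difference was 2.51 on the log2 scale (SE 0.49, 5.69-fold, edgeR adjusted p 0.0160). Its wild-type libraries held only 13, 11, 3 and 11 counts, with replicate 3 at the floor, so the fold is uncertain. Cyp19a1 failed the filter on low counts between E13.5 and E18.5 in wild type. It was thus tested here only through the mutant libraries, where it is high, and its call carries that limit. Hsd3b1 measured 227, 197, 175 and 114 CPM in wild type and 252, 335, 281 and 340 CPM in the mutant, again with no overlap (log2 0.75, SE 0.19, 1.68-fold, edgeR adjusted p 0.0478). These were 2 of the 7 tested genes not picked for a genotype change, both higher, while 4.99% of all genes were called at this age; groups without overlap were 14.7% of all genes. The other 5, Star, Cyp11a1, Cyp17a1, Fdx1 and Akr1c18, overlapped between genotypes, with log2 differences from -0.52 for Star to 0.51 for Akr1c18 and edgeR adjusted p from 0.382 to 0.928. Hsd17b3 had too few counts to be tested. The median of the 7 was 0.22, and that of all genes -0.04.

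Both calls at E18.5 depended on single libraries and on the model. Cyp19a1 kept its direction under all 13 alternatives, at 2.22 to 2.76, and passed in 9 of them (edgeR or DESeq2 adjusted p 4.02e-05 to 0.0597). Its call was lost without the wild-type replicate 4 (edgeR adjusted p 0.0576), the null replicate 3 (0.0522) or the null replicate 4 (0.0597) and in the fit of all groups (0.0567). Hsd3b1 kept its direction as well, at 0.58 to 0.89, but passed in 3 of 13 (edgeR or DESeq2 adjusted p 0.00302 to 0.232). With a replicate block, which the pairing rule given below asks for at this age, it was lost (log2 0.78, edgeR adjusted p 0.0897). It was also lost with no filter on low counts (edgeR adjusted p 0.0526) and with all groups in 1 fit (edgeR adjusted p 0.232). The same held in every fit without a library except that without the wild-type replicate 1.

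**Figure D3:**
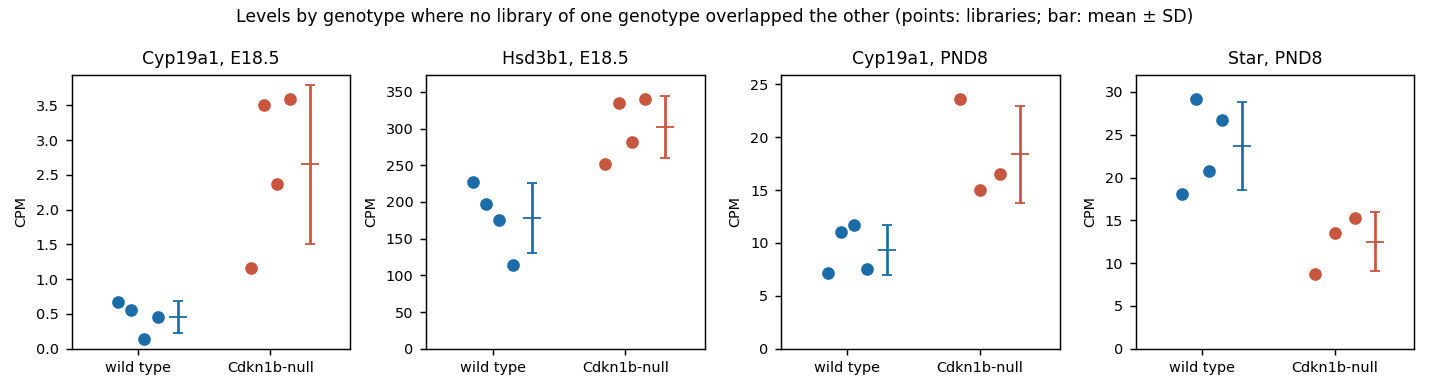
CPM (linear axes from 0) in each library for Cyp19a1 and Hsd3b1 at E18.5 and for Cyp19a1 and Star at PND8, wild type in blue and Cdkn1b-null in red, with the mean ± SD beside the points. In each panel the genotypes do not overlap; the Star libraries of the mutant are the lower ones.

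The summed level of granulosa cell markers stood higher in the same libraries. The sum of the 10 granulosa markers was 1341 to 1615 CPM in the E18.5 wild type and 1643 to 1905 CPM in the mutant, without overlap. The median log2 difference of the 9 tested was 0.18, against -0.04 over all genes. Of these 9, 1 was called, where 4.99% of all genes were. That gene was Inha, the inhibin alpha subunit, at 85.9 to 114 CPM against 144 to 296 CPM (log2 1.14, edgeR adjusted p 0.00795). The theca and interstitial list, 8 genes, summed to 1163 to 2535 CPM and 1171 to 1760.4 CPM, and the luteal list of 7 genes, which holds Cyp11a1, to 94.3 to 96.4 CPM and 100.3 to 115 CPM. Of the theca and interstitial list 2 of 7 tested were called lower, among them Nr2f2, which marks interstitial and theca precursors, at 102 to 148 CPM against 77.7 to 99.5 CPM. The part of these cell types in the differences of Cyp19a1 and Hsd3b1 was not tested.

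The picked gene Hsd17b1 measured 0.671, 1.07, 1.64 and 1.38 CPM in wild type and 3.20, 5.44, 5.20 and 5.85 CPM in the mutant at E18.5, a 4.07-fold higher level by the fit. At E13.5 it had 1 or 2 counts per wild-type library and 5 to 8 counts per mutant library. At PND8 the ratio was 1.45, with 104, 118, 171 and 103 CPM against 233, 150.2 and 162 CPM, and the groups overlapped. At 12wk they overlapped too, with a ratio of 0.767. Srd5a1 was 1.44-fold higher at E18.5, where the mutant measured 9.61, 6.41, 8.15 and 8.39 CPM against at most 5.80 CPM in wild type. It was 2.29-fold higher at 12wk, with 78.0, 67.7 and 83.2 CPM against 32.0, 31.8, 35.9 and 34.0 CPM. Neither age had an overlap, while those at E13.5 and PND8 did (ratios 1.14 and 1.18). These values chose the 2 genes and are given as a description.

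**Figure D4:**
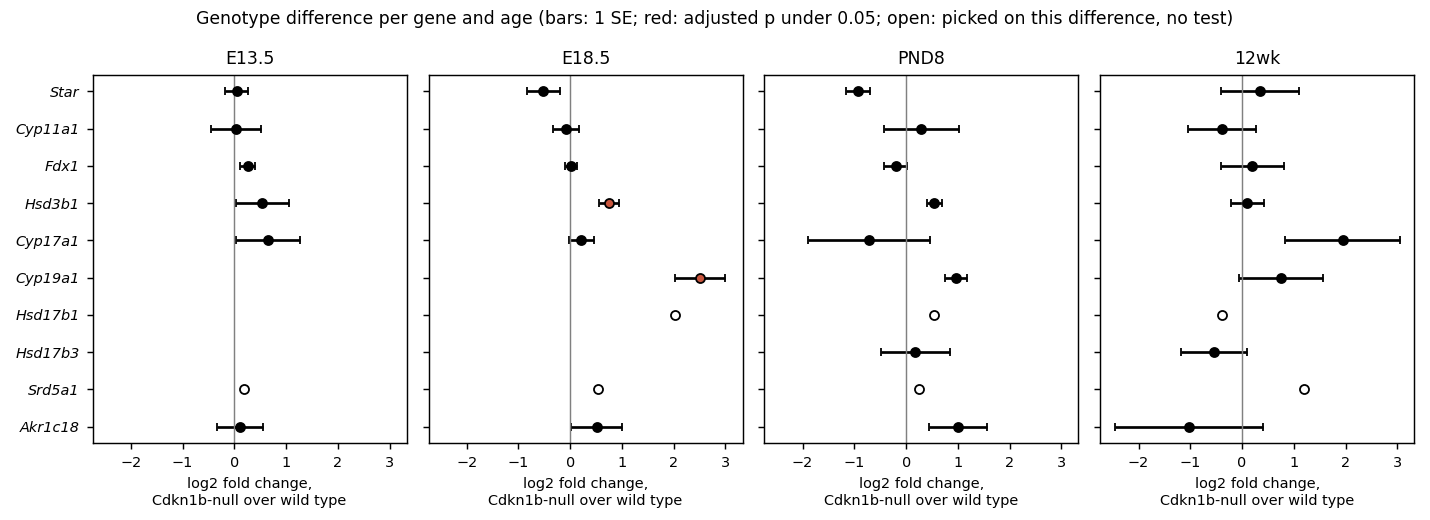
Log2 fold change of each gene, Cdkn1b-null over wild type, at the 4 ages, with bars of 1 SE. Red points have an edgeR adjusted p under 0.05 (Cyp19a1 and Hsd3b1 at E18.5), black points do not, and open points are Hsd17b1 and Srd5a1, given without a test. Genes that failed the filter on low counts have no point.

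At E13.5 none of the 6 tested genes was called in edgeR (0 with an unadjusted p under 0.05, 0 called by DESeq2), where 0.00606% of all genes were called. Log2 differences ran from 0.04 for Cyp11a1 to 0.65 for Cyp17a1, with SE of 0.14 to 0.62, and all groups overlapped. Hsd3b1 spanned 5.66 to 39.5 CPM among the 3 mutant libraries and 14.2 to 21.8 CPM in wild type. Without the blood-rich wild-type replicate 3 the count was again 0.

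At PND8 none of the 8 tested genes was called in edgeR, where 0.349% of all genes were called. Of the 8, 3 had an unadjusted p under 0.05 in edgeR, as had 2662 of all 17785 genes tested. Those 3 were called by DESeq2, which called 715 of all 15994 genes. Groups did not overlap for these 3, against 14.5% of all genes. Star was lower in the mutant, at 8.68, 13.5 and 15.3 CPM against 18.1 to 29.1 CPM (log2 -0.93, SE 0.23, edgeR adjusted p 0.138, DESeq2 adjusted p 0.00272). Cyp19a1 stood at 23.6, 15.0 and 16.5 CPM against 7.13 to 11.7 CPM (log2 0.96, SE 0.21, edgeR adjusted p 0.108, DESeq2 adjusted p 0.00128). Hsd3b1 stood at 1651, 1352 and 2053 CPM against 995 to 1256 CPM (log2 0.54, SE 0.14, edgeR adjusted p 0.141, DESeq2 adjusted p 0.00750). Over the alternatives, direction was kept and adjusted p ran from 0.00272 to 0.929 for Star, from 0.00128 to 0.951 for Cyp19a1 and from 0.00750 to 0.959 for Hsd3b1. The granulosa marker sums overlapped at this age, at 4630.4 to 6306 CPM in wild type and 5901 to 6393 CPM in the mutant, with 1 of 10 called higher. Of the 8 theca and interstitial markers, 1 was called lower.

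Cyp11a1 and Cyp17a1 showed another split at PND8, within the genotypes. Cyp11a1 measured 45.0, 82.5, 22.5 and 111 CPM in wild-type replicates 1 to 4 and 45.4, 35.6 and 162 CPM in null replicates 1, 3 and 4. Cyp17a1 measured 14.9, 63.7, 10.3 and 82.8 CPM and 4.57, 9.38 and 65.5 CPM in the same libraries. The wild-type replicates 2 and 4 and the null replicate 4 were the highest for both genes. The theca marker Insl3 was highest there as well, at 2.34, 2.78 and 2.74 CPM against at most 0.997 CPM in the other 4 libraries. The sum of the 8 theca and interstitial markers did not follow this order. It was 4032, 3708 and 2787 CPM there, against 5438, 3538, 4824 and 3448 CPM in the other 4. The share of theca cells in this spread was not tested, and the log2 differences between genotypes, 0.29 (SE 0.73) and -0.72 (SE 1.18), had edgeR adjusted p of 0.894 and 0.828.

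In adult ovaries none of the 8 tested genes was called in edgeR (0 with an unadjusted p under 0.05, 0 called by DESeq2), where 0.0115% of all genes were called. Cyp17a1 alone did not overlap, at 404, 177, 14.9 and 10.7 CPM in wild type and 742, 575 and 449 CPM in the mutant, and 8.71% of all genes had no overlap. Its difference of 1.94 on the log2 scale had an SE of 1.11 (edgeR adjusted p 0.629; 0.337 to 0.844 over the alternatives). The standard errors of Star, Cyp11a1, Fdx1, Cyp19a1 and Akr1c18 were 0.61 to 1.44, so that differences of the size seen for Srd5a1 were not detectable for them at this spread. Akr1c18 differed by -1.02 (SE 1.44, edgeR adjusted p 0.863), with 115 CPM in null replicate 3 but 0.217 and 2.08 CPM in replicates 1 and 4. Without null replicate 3 the difference was -5.97 (edgeR adjusted p 0.206), the farthest of any alternative.

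The adult libraries differed widely from each other in luteal and follicular genes. Star and Cyp11a1 were highest in wild-type replicate 2 (746 and 5509 CPM) and null replicate 4 (920.2 and 3204 CPM). Hsd17b7, another enzyme of the luteal cell, stood at 651 and 568 CPM in the same 2 libraries and at 28.0 to 66.6 CPM in the other 5. Scarb1, the receptor that takes up cholesterol from lipoproteins, was highest there too (1866 and 1350.03 CPM against 509 to 776 CPM). Null replicate 1 had the least RNA of the luteal markers Ptgfr, the prostaglandin F receptor, and Sfrp4, at 2.64 and 6.98 CPM, against at least 46.7 and 113 CPM in every other adult library. It was also the library with Akr1c18 at 0.217 CPM, although its Cyp11a1 was 1290.3 CPM. Over the whole luteal list of 7 genes, which holds Cyp11a1, the lowest adult sum was in wild-type replicate 3. That sum was 962 CPM, against 1755 CPM in null replicate 1. Cyp19a1 and Inhba, both of the granulosa cells of growing follicles, were low together in wild-type replicate 4 (7.96 and 175 CPM) and null replicate 4 (18.6 and 224 CPM). The labels give no cycle stage for these animals, and the part of luteal and follicular tissue in the adult spread was not tested. Between genotypes the sums of the granulosa, theca and luteal lists overlapped at 12wk. The 10 oocyte markers summed to 7.79 to 98.1 CPM in adult wild type and 5.20 to 6.79 CPM in the mutant, and the 6 blood genes to 87.5 to 159 CPM and 221 to 812 CPM, both without overlap. Of these lists 0 of 9 and 0 of 5 tested genes were called (edgeR), and their part in the adult values was not tested.

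**Figure D5:**
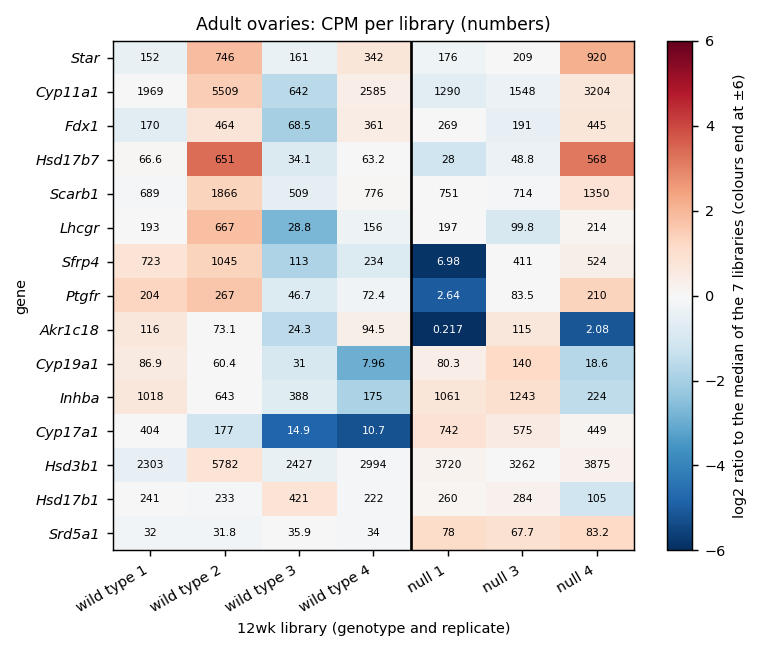
CPM of 9 steroid synthesis genes and 6 other enzyme, receptor or marker genes in the 7 adult libraries (numbers; null 1, 3 and 4 are the Cdkn1b-null replicates), coloured by the log2 ratio to the median of the 7, with colours that end at ±6. Wild-type replicate 2 and null replicate 4 hold the highest values of Star, Cyp11a1 and Hsd17b7, in pale colours for Cyp11a1. Null replicate 1 is dark blue for Sfrp4, Ptgfr and Akr1c18, and Srd5a1 separates the genotypes.

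Whether the genotype difference changed with age was tested for the 8 genes in 1 model of all 29 libraries. None was called in edgeR (0 with an unadjusted p under 0.05, 0 by DESeq2), where 0.806% of all genes were, and edgeR adjusted p ran from 0.639 to 0.944. Without the 12wk null replicate 3, Akr1c18 was called (edgeR adjusted p 0.00828; up to 1 over the 33 alternatives). A difference between ages was thus not shown for Cyp19a1 or Hsd3b1, which passed at E18.5 alone (edgeR adjusted p of the interaction 0.684 and 0.846).

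Around the pathway, genes of cholesterol synthesis were higher in the mutant at E18.5. Of 12 such genes, 7 were called higher and 0 lower (edgeR), where 4.99% of all genes were called, with a median log2 difference of 0.55 against -0.04 over all genes. Fdps, which makes farnesyl pyrophosphate, measured 50.3 to 75.6 CPM in wild type and 109.6 to 140.5 CPM in the mutant (log2 1.08, SE 0.14, edgeR adjusted p 0.00227). Sqle, squalene epoxidase, measured 58.7 to 80.3 CPM and 108 to 159 CPM (log2 1.00, SE 0.15, edgeR adjusted p 0.00422). Of 11 genes of cholesterol supply, 2 were called higher and 0 lower, with a median of 0.06. Of 19 tested among the other steroid enzymes 2 were called higher and 1 lower. The lower gene was Hsd11b2, which inactivates glucocorticoids, with means of 17.3 and 9.79 CPM (log2 -0.83, SE 0.16, edgeR adjusted p 0.0140), a call lost without null replicate 3 or 4 (edgeR adjusted p 0.0668 and 0.0583). Nr2f2 was the lower gene among 12 tested regulators (log2 -0.52, SE 0.13, edgeR adjusted p 0.0436), a call lost in 7 of the 8 fits without a library. At the other ages edgeR called 0 of the 71 genes of these lists, of which 62, 66 and 65 were tested at E13.5, PND8 and 12wk. At an unadjusted p under 0.05 in edgeR there were 1, 21 and 8, and DESeq2 called 0, 6 and 2. Over all genes the unadjusted p was under 0.05 for 576 of 16508, 2662 of 17785 and 1675 of 17396. DESeq2 called 71 of 20151, 715 of 15994 and 293 of 19043 genes.

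With age in wild type, the cholesterol and steroid genes did not move as a single block. From E13.5 to E18.5, while 5 steroid synthesis genes rose, 10 of the 12 cholesterol synthesis genes were called lower and 0 higher (34% of all genes were called), with Fdps at -1.68 (SE 0.16, edgeR adjusted p 7.14e-05) and a median of -1.02. All 6 steroid receptors were called higher, Esr2, the beta oestrogen receptor, by 3.83 (SE 0.40, edgeR adjusted p 9.32e-05). Akr1c14, a 3-alpha-hydroxysteroid dehydrogenase, rose by 3.45 (SE 0.32, edgeR adjusted p 5.60e-05), and 8 of 19 tested among the other steroid enzymes were called higher and 2 lower. The larger of these 2, Hsd3b6, a close relative of Hsd3b1, measured 26.4 to 1046 CPM at E13.5, with the highest value in the blood-rich replicate 3. Its log2 difference was -7.12 with that library and -3.92 without it (edgeR adjusted p 0.0290 and 0.0137), and the call was lost without the E18.5 replicate 1 (edgeR adjusted p 0.0717) or 4 (edgeR adjusted p 0.0507) and with no filter on low counts (edgeR adjusted p 0.0691).

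From E18.5 to PND8, 8 of the 13 regulators were called higher and 1 lower, a share below the 74.6% of all genes called at this step. Fshr, the FSH receptor of granulosa cells, rose by 7.54 (SE 0.52, edgeR adjusted p 6.65e-07; 8.63 without the E18.5 replicate 3), and Nr5a2, a nuclear receptor that drives steroid enzyme genes, by 6.05 (SE 0.23, edgeR adjusted p 3.37e-08). Of the 12 cholesterol synthesis genes 5 were called higher and 1 lower, again below that share. From PND8 to 12wk, 7 of 11 cholesterol supply genes were called higher and 0 lower (30.5% of all genes were called), with Scarb1 at 1.81 (SE 0.37, edgeR adjusted p 0.00704). Lhcgr, the LH receptor of theca and luteal cells, rose by 4.58 (SE 0.90, edgeR adjusted p 0.00572; 3.55 without the 12wk replicate 2). Fdxr, ferredoxin reductase and partner of Fdx1, rose by 0.82, 1.24 and 1.49 at the 3 steps (edgeR adjusted p 0.00195, 7.23e-06 and 0.00167).

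Finally, the profile of each gene over the 8 group means was compared with 11651 genes, by the root mean square difference of log2 CPM after each gene's own mean was taken off, a description with no test. The nearest to Cyp19a1 was Hsd3b1 itself (0.69), and the nearest to Hsd3b1 were Thbs1 (0.54), Aoc3 (0.59) and Inha (0.67). The nearest to Hsd17b1 was Esr2 (0.68), and the nearest to Cyp11a1 was Sfrp4 (0.79). Srd5a1 had the closest neighbours of the 10, Rap1gap2 (0.15) and Flt4 (0.18). The others were nearest to Plch2 (Star, 0.26), Serpina3c (Cyp17a1, 0.63), Gja1 (Hsd17b3, 0.21), Prss23 (Fdx1, 0.29) and Brinp2 (Akr1c18, 0.90). Hsd17b3 never exceeded 2.03 CPM, and Plch2 averaged 0.410 to 0.685 CPM in each group up to PND8. Near the floor the prior count flattens such profiles, so these likenesses mean little. These 8 means come from the same libraries as the tests. The mutant means are among those matched, so a likeness between neighbours in the mutant follows from the matching.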

How the data were processed

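Bulk RNA sequencing of 29 mouse ovary libraries was used. The authors' values, per the file headers, are RSEM expected counts per gene, deposited without rounding (reads that fit several genes are shared out). Per the submitters' processing notes, Trim Galore, FastQC 0.11.5, STAR 2.5.2 and RSEM 1.3.0 were used. The genome build and strandedness are not given in the sources used here, and without strand a gene and an antisense partner cannot be told apart. Gene symbols matched 51633 of 51912 IDs. Positions are from GENCODE M21 on GRCm38, and promoters from RefSeq on GRCm38.p6. Per the file headers 2 projects were combined, with no map to libraries, so no batch could be tested.

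Expected counts were rounded and tested with edgeR 4.0.16 (R 4.3.3): TMM scaling, a filter (minimum count 10, total 15), a robust quasi-likelihood F test on the libraries of each comparison, and Benjamini-Hochberg adjustment over all genes, threshold 0.05. Called means under it. SE is the log2 fold change divided by the square root of F. The scripts were tested on simulated data. Alternatives were RLE scaling, CPM by library total for levels, no filter, all groups in 1 fit, DESeq2 1.42.0, a replicate block, and each library left out.

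Groups and replicate numbers came from sample titles. Same-numbered libraries deviated together in every pair for the genotypes at E18.5 (correlation 0.101 to 0.197, 4 pairs). They did so too for E13.5 to E18.5 in Cdkn1b-null (0.133 to 0.205, 3 pairs). Both comparisons count as paired by this rule, although no label gives a shared litter or day. Their main tests used no block, which was run as an alternative. At E18.5, 0 of the 4 pairs correlated best with their own number, and in Cdkn1b-null all 3 did. The genes and lists were chosen with earlier results of these data known. Named list genes are the called genes with the largest change, up to 2 each way per list and wild-type step and up to 3 each way per genotype effect. Inha, Insl3 and the other cell markers come from fixed lists, of which those of oocytes, mesonephros and oviduct, endothelium and immune cells gave no called gene between genotypes at any age; marker sums that did not overlap are given beside the results. For profile likeness a mean of 2 CPM, a highest group mean of 10 CPM and a prior count of 2 were required. Hsd17b8 and Sts matched no symbol in the table. Values of some list genes are not reported here.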

Additional observations from a re-analysis of the deposited data

Results flagged for a closer look

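In 2 of 47 sets of 4 libraries, a single library stood apart from the others by Dixon's test at the 95% level, where chance gives about 1 in 20. Hsd17b1 measured 421 CPM in the 12wk wild-type replicate 3, against 222 to 241 CPM in the other 3 adult wild-type libraries. Akr1c18 measured 29.3 CPM in the E18.5 wild-type replicate 3, against 7.94 to 9.41 CPM in the other 3 libraries of that group, and 2 of the 4 Cdkn1b-null libraries of that age measured 27.1 and 27.8 CPM.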

How the results depend on the processing

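The count of steroid synthesis genes called at E18.5 between genotypes, 2, was 1 with no filter on low counts, 0 with all groups in 1 fit, 1 with the replicate block, and 0 to 2 when single libraries were left out. At PND8 it was 3 by DESeq2 and 0 otherwise. The count called for the interaction, 0, was 0 to 1 when single libraries were left out. The other counts stayed within 1.5 times under every alternative run. The cause was not tested. The replicate block also ended calls in comparisons that count as unpaired, where same-numbered libraries share only a number: Cyp19a1 from PND8 to 12wk in wild type (log2 1.98, edgeR adjusted p 0.0583) and Cyp17a1 from E18.5 to PND8 in Cdkn1b-null (2.15, edgeR adjusted p 0.0743). It changed no other call among the 10 genes beside those given for Hsd3b1.

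Some differences that were not called, or for Srd5a1 not tested, changed sign. With the block, Cyp11a1 between genotypes at 12wk was 0.32 and Akr1c18 from PND8 to 12wk in Cdkn1b-null -1.57. With all groups in 1 fit, Star from E18.5 to PND8 in Cdkn1b-null was 0.0050. Leaving out single libraries, the genotype difference at E13.5 ran from -0.10 to 0.23 for Star, -0.21 to 0.35 for Cyp11a1, -0.22 to 0.96 for Cyp17a1 and -0.16 to 0.39 for Akr1c18. At E18.5 it ran from -0.29 to 0.071 for Cyp11a1 and -0.068 to 0.077 for Fdx1. At PND8 it ran from -0.71 to 0.68 for Cyp11a1, -0.17 to 0.63 for Hsd17b3, -0.0034 to 0.39 for Srd5a1 and -0.0019 to 1.36 for Akr1c18. At 12wk it ran from -0.89 to 1.00 for Star, -0.95 to 0.21 for Cyp11a1, -0.037 to 0.47 for Hsd3b1 and -0.24 to 0.58 for Fdx1. In Cdkn1b-null over age, Star ran from -0.055 to 0.29 (E13.5 to E18.5) and -0.23 to 0.15 (E18.5 to PND8). Akr1c18 ran from -1.22 to 0.16 (E18.5 to PND8) and -3.80 to 2.17 (PND8 to 12wk), the lowest without the 12wk replicate 3 (edgeR adjusted p 0.0431).

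Over all genes, the number called between genotypes moved from 1 to between 0 and 71 at E13.5, from 814 to between 246 and 1636 at E18.5, from 62 to between 0 and 715 at PND8 and from 2 to between 0 and 293 at 12wk, and for the interaction from 164 to between 72 and 709. At this depth Cyp19a1 at E13.5 and Hsd17b3 before birth held too few counts for a test between genotypes.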

Other observations

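Among the other steroid enzymes, 2 further genes passed in Cdkn1b-null ovaries at E18.5, named here after their values were seen. Akr1c14 had means of 232 CPM in wild type and 374 CPM in the mutant (log2 0.68, edgeR adjusted p 0.0204). Hsd17b7, which acts in oestradiol and in cholesterol synthesis, had means of 23.3 and 35.4 CPM (log2 0.59, edgeR adjusted p 0.0349). At PND8 the LH receptor gene Lhcgr, like Cyp11a1 and Cyp17a1, was highest of its genotype in wild-type replicate 4 (19.3 CPM) and null replicate 4 (28.5 CPM).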
